A study of Homo sapiens with 6 samples.

Results

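The complement components and regulators described here are 8 genes, C3, CFB, C1R, C1S, SERPING1, CD46, CD55 and CD59, of the 18358 genes measured. They were picked by comparing read counts between VPS13C knockout and vector cells, and for the near loss of C3 in the knockout cells. Values of the 8 genes in that contrast are therefore a description, and no test is given for them. All 8 were found and passed the filter on low counts.

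The measurements are RNA-seq of ME180, an established human line of cervical epidermoid carcinoma whose labels name a retinal metastasis, in 6 libraries. In 3 libraries the cells carried a single-guide construct against VPS13C (sgVPS13C, called VPS13C knockout), and in 3 they carried the vector. VPS13C codes for a protein that moves lipids between membranes at organelle contacts. All 6 libraries came from cells given 2 µM cisplatin, a DNA-crosslinking drug, for 48 h, so no group without cisplatin enters the comparison. Whether the knockout cells were 1 clone or a pool, and whether replicates were separate cultures, is not in the labels. P-values then cover only the variation among these libraries, possibly technical.

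Complement is a cascade of blood proteins that marks and kills targets. The classical pathway starts with the C1 complex and its proteases C1r and C1s, and the alternative pathway runs on factor B. Both build enzymes that split C3, whose C3b fragment binds covalently to surfaces and leads on to the membrane attack complex. Cells protect themselves with membrane regulators and with C1 inhibitor. The liver makes most of the circulating proteins, and epithelial cells make some of them locally and carry the membrane regulators.

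Total counts ran from 14774065 to 15799149 per library. VPS13C itself, the target of the construct, had 28.6, 18.6 and 23.7 CPM (reads scaled to a common library size with TMM factors) in the knockout libraries and 48.1, 30.1 and 35.0 CPM in the vector libraries. Its log2 fold change was −0.67 (SE 0.22), with an edgeR quasi-likelihood adjusted p of 0.0513. GSTP1, a glutathione transferase that the study's title names, averaged 1773 ± 492 CPM in knockout and 1358 ± 295 CPM in vector libraries (SD, n = 3 each; log2 fold change 0.39, edgeR adjusted p = 0.266). Of 13717 genes tested, edgeR called 4821 at an adjusted p under 0.05, which is 35.1%, with 17.8% higher and 17.4% lower in the knockout cells. The calls numbered 3026 without knockout replicate 3 and 3103 without vector replicate 3. The CPM of the libraries did not overlap between groups in 48.5% of tested genes.

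C3 is the central component, whose cleavage both pathways share. It was counted 4, 7 and 9 times in the knockout libraries, against 410, 367 and 380 times in the vector libraries. The 3 knockout libraries lay far below all vector libraries, and the vector libraries lay close together. In CPM this was 0.447 ± 0.165 in knockout and 24.1 ± 0.365 in vector cells (SD, n = 3 each). The summed counts were 20 in knockout and 1157 in vector libraries, or 1.85% of the vector level after scaling for library size. The scaled ratio of vector to knockout was 54.1, with a 95% interval of 34.9 to 88.9 that covers counting error only. The fitted log2 fold change was −5.40 (SE 0.21) with a prior count of 2, and −5.73 with a prior count of 0.125. Of the tested genes, 3 had a lower log2 fold change than C3. In bulk RNA, fewer cells that express C3 and less C3 RNA per cell cannot be told apart.

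CFB codes for factor B, which supplies the protease of the alternative pathway's C3-splitting enzyme. It had 10.6, 12.8 and 11.4 CPM in the knockout libraries and 5.80, 6.81 and 6.85 CPM in the vector libraries. Each knockout library was above all vector libraries. The fitted log2 fold change was 0.83 (SE 0.13), a direction opposite to that of C3.

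C1R and C1S code for the paired proteases of the C1 complex, in which C1r activates C1s and C1s cleaves C4 and C2. C1R had 48.6, 54.1 and 50.8 CPM in knockout libraries and 26.1, 30.3 and 33.1 CPM in vector libraries. The groups did not overlap, and the log2 fold change was 0.78 (SE 0.12). C1S had 5.45, 5.60 and 5.17 CPM in knockout libraries and 6.82, 6.48 and 7.23 CPM in vector libraries. These groups did not overlap either, but the knockout libraries were the lower ones, with a log2 fold change of −0.33 (SE 0.12). The 2 partner proteases thus lay on opposite sides of 0, with averages of 51.2 ± 2.76 against 29.8 ± 3.55 CPM for C1R and 5.41 ± 0.218 against 6.84 ± 0.377 CPM for C1S (knockout against vector, SD, n = 3 each).

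SERPING1 codes for C1 inhibitor, the serpin that inactivates C1r and C1s. It had 1.97, 3.76 and 1.75 CPM in the knockout libraries and 2.87, 3.44 and 3.36 CPM in the vector libraries. Knockout replicate 2 was the highest of all 6 libraries, and the remaining knockout libraries were below the vector ones. Its log2 fold change was −0.36 (SE 0.30), or −0.75 without knockout replicate 2. With summed counts of 110 in knockout and 154 in vector libraries, it had the fewest counts of all members in the vector libraries.

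CD55 (decay-accelerating factor) takes apart the enzymes that split C3. It had 43.3, 38.6 and 43.6 CPM in knockout libraries and 83.7, 69.9 and 70.4 CPM in vector libraries. All knockout libraries were below all vector libraries, and the log2 fold change was −0.83 (SE 0.12). CD59 blocks the last step of the membrane attack complex and, like CD55, is held in the membrane by a glycosylphosphatidylinositol (GPI) anchor. It had 149, 166 and 161 CPM in knockout libraries and 217, 226 and 220 CPM in vector libraries. Again the groups did not overlap, and the log2 fold change was −0.48 (SE 0.09).

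CD46 (membrane cofactor protein) helps factor I to cut C3b on the cell's own surface and spans the membrane with a protein tail. It had 111, 75.1 and 104 CPM in knockout libraries and 116, 65.5 and 69.7 CPM in vector libraries. The groups overlapped, with vector replicate 1 the highest library of all. The log2 fold change was 0.21 (SE 0.25), or 0.51 without vector replicate 1. The libraries did not overlap for 6 of the 8 members, the exceptions being CD46 and SERPING1. The share over all tested genes was 48.5%, and since the members were chosen on this contrast nothing is read from their count.

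**Figure D1:**
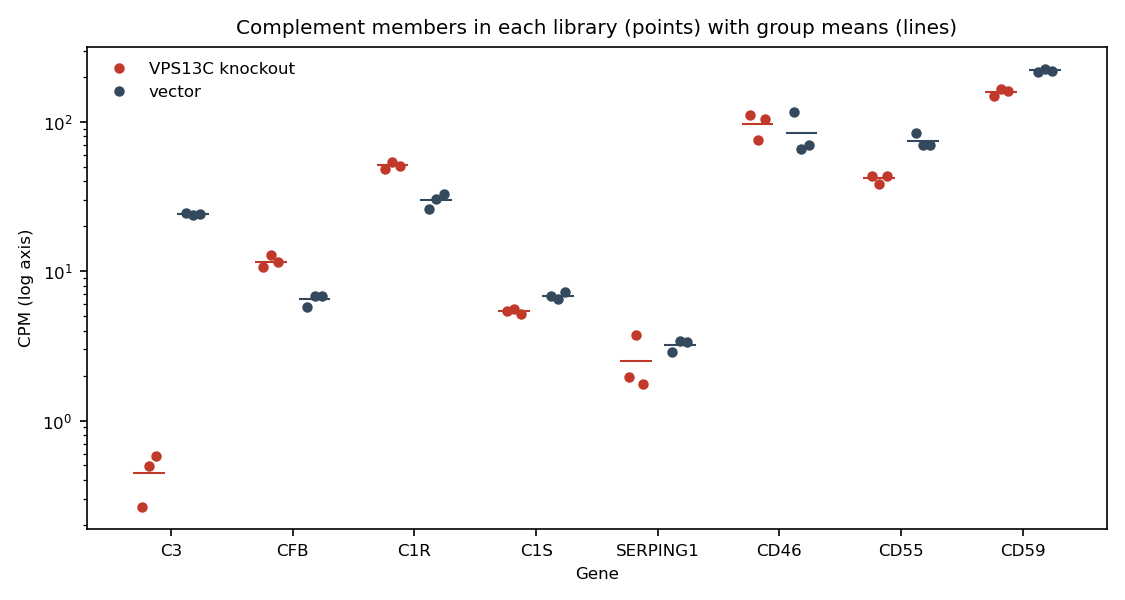
CPM of each member on a log axis, with 1 point per library and a line at the group mean, VPS13C knockout left of vector. C3 falls below 1 CPM in all 3 knockout libraries and lies near 24.1 CPM in the vector libraries, while the other members differ by less than 2-fold on average.

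On the length-corrected scale of the deposited TPM, which allows levels of different genes to be compared, the order of the members differed between the groups. In knockout cells CD46 (47.5 ± 15.6 TPM), CD55 (37.2 ± 8.72 TPM), C1R (29.1 to 35.4 TPM, mean 32.6) and CD59 (30.8 ± 3.24 TPM) came first, and each overlapped the next in its library values. CFB followed at 7.42 ± 0.461 TPM. C1S at 3.13 ± 0.405 TPM overlapped SERPING1 at 2.18 ± 0.633 TPM, and C3 was last at 0.127 ± 0.0404 TPM (SD, n = 3). In vector cells CD55 had the highest mean, 66.1 ± 19.0 TPM, and did not overlap CD59 (43.2 ± 4.96 TPM). CD46 (41.5 ± 19.8 TPM) overlapped both CD55 and CD59. C1R had 19.1 ± 1.56 TPM there and C3 had 6.99 ± 1.04 TPM, above CFB (4.17 ± 0.212 TPM) and C1S (4.05 ± 0.587 TPM), which overlapped, and SERPING1 (2.92 ± 0.112 TPM). C3 was thus the eighth of 8 in knockout cells and the fifth in vector cells. Among all tested genes its mean TPM stood at percentile 0.459 in knockout cells and at 34.0 in vector cells. C1R moved the other way, to percentile 71.9 in knockout cells, against 58.2 in vector cells.

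The deposited transcript table splits each gene's estimated counts over RefSeq transcripts. C3, CFB and C1R have 1 transcript each in it, so they offer no split. CD46 had counts on 13 transcripts, which differ by short exons in the region of sugar attachment (STP exons) and by the cytoplasmic tail (CYT-1 or CYT-2). The exons below were chosen after their values were seen, and the shares rest on the authors' division of 50-base reads between similar transcripts, so they are described without a test. The CYT-1 exon, of 93 bases, lies at chr1:207790253-207790345 (GRCh38, GENCODE release 29, plus strand). Where it is skipped, the reading frame continues into the last exon and gives the CYT-2 tail. The coding stretches that separate both tails, and the STP B exon, are shown because their summed shares did not overlap between groups. These are shares of the counts on transcripts matched to an exon model.
CD46 CYT-1, chr1:207790253-207790301: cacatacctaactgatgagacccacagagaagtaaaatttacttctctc
CD46 CYT-2, chr1:207793519-207793588: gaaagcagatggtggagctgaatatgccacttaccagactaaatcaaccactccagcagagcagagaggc
CD46 STP B, chr1:207767779-207767823: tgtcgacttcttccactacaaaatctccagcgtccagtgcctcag

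Transcripts with the CYT-1 exon made up 17.0%, 21.3% and 16.7% of the matched CD46 counts in knockout libraries and 32.4%, 26.9% and 23.9% in vector libraries. All knockout libraries were below all vector libraries, with averages of 18.3 ± 2.53% in knockout and 27.7 ± 4.31% in vector cells (SD, n = 3 each). The remainder, with CYT-2, averaged 81.7% in knockout and 72.3% in vector cells. The main CYT-1 transcript alone, NM_172351.3, overlapped between groups. It held 10.3%, 16.6% and 15.8% of all CD46 counts in knockout and 27.9%, 23.5% and 15.2% in vector libraries. In vector replicate 3, the minor CYT-1 forms NM_172352.3 and NM_002389.4 held 5.10% and 3.58%, and both were at 0 in knockout replicate 3. The main CYT-2 transcript, NM_153826.4, also overlapped. The STP B exon was in 88.3%, 85.2% and 85.3% of the matched counts in knockout libraries and in 88.8%, 94.3% and 88.4% in vector libraries. These groups did not overlap, but the nearest libraries were almost level. The transcripts matched to an exon model held between 93.5% and 100% of the CD46 counts in each library. The 93.5% was in knockout replicate 2, where NM_172358.3, which has no model, held 5.48%. That is more than the gap between its CYT-1 share, 21.3%, and the 23.9% of vector replicate 3. Whether the groups would still not overlap over all CD46 counts, for CYT-1 or for STP B, therefore cannot be told. The total CD46 level overlapped between groups.

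CD59 showed a split of another kind. All its matched transcripts share the same coding sequence of 384 bases and differ in non-coding first exons. A non-coding exon of 45 bases (chr11:33731424-33731468, minus strand) was in 37.4%, 39.1% and 42.0% of CD59 counts in knockout libraries and in 50.9%, 45.1% and 50.4% in vector libraries. The groups did not overlap, with means of 39.5 ± 2.31% in knockout and 48.8 ± 3.21% in vector cells (SD, n = 3 each). For CD55, the GPI-anchored form NM_000574.5 held 48.4%, 52.5% and 49.9% of counts in knockout libraries and 48.3%, 57.3% and 56.8% in vector libraries, and the groups overlapped. The transcripts of C1S and SERPING1 changed their shares from library to library within a group, and their groups overlapped.

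**Figure D2:**
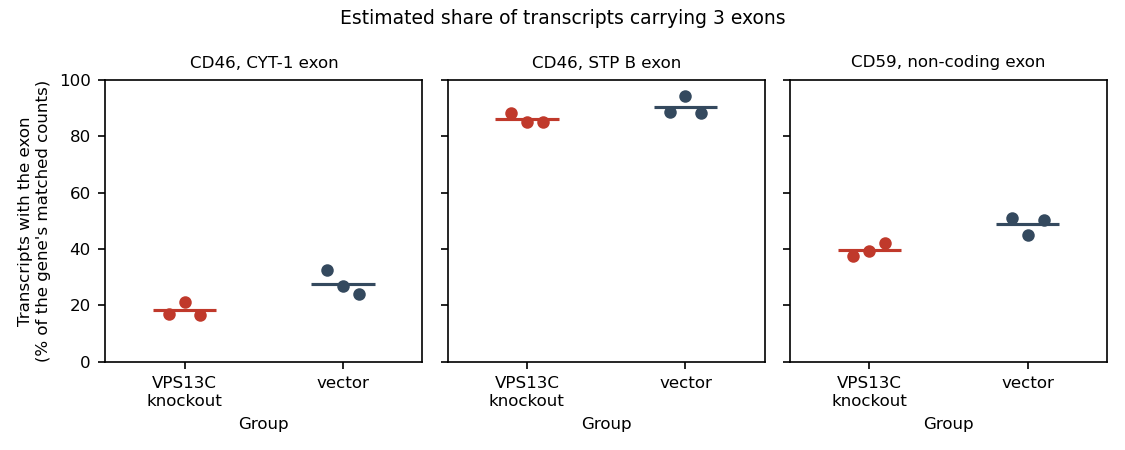
Share of a gene's matched estimated counts on transcripts that carry the named exon, in percent from 0 to 100, with 1 point per library and a line at the group mean, VPS13C knockout left of vector. The CD46 CYT-1 exon and the CD59 non-coding exon average 18.3% and 39.5% in knockout cells, below the 27.7% and 48.8% of vector cells.

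The members lie at 6 places in the genome (GRCh38, from a RefSeq table). C3 is at chr19:6677704-6720650 and CFB at chr6:31946095-31952084, within the major histocompatibility complex. C1R (chr12:7080219-7092445) and C1S (chr12:7060718-7071032) are neighbours with opposite directions of difference. CD55 (chr1:207321678-207360966) and CD46 (chr1:207752038-207795516) belong to the cluster of complement regulators on that chromosome. CD59 (chr11:33703010-33736479) and SERPING1 (chr11:57597685-57614848) are on the same chromosome but far apart.

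Around C3, the 20 nearest tested genes, 10 on each side, showed a median of −0.23 in log2 fold change, and edgeR called 0 of them higher and 6 lower, where 17.4% of all genes were lower. The 5 nearest on each side had a median of −0.62 with 5 called lower, and the 20 nearest on each side a median of −0.04. The 6 low neighbours, some named here after their values were seen, lay on both sides of C3. They include CD70, a ligand of the TNF family and the nearest tested gene on one side of C3, with a log2 fold change of −1.81. On the other side they include SH2D3A and ADGRE1, with −0.80 and −2.11. GPR108 and TRIP10, which lie between C3 and SH2D3A, had 0.06 and −0.39 and were not called. None of the 20 was as low as C3. For the other members, the median log2 fold change of the 20 neighbours was −0.15 (CFB), −0.11 (C1R), 0.0037 (C1S), 0.22 (SERPING1), −0.20 (CD46), −0.10 (CD55) and 0.08 (CD59). CFB and C1R were above all 20 of their neighbours, and CD55 was below 18 of its 20.

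**Figure D3:**
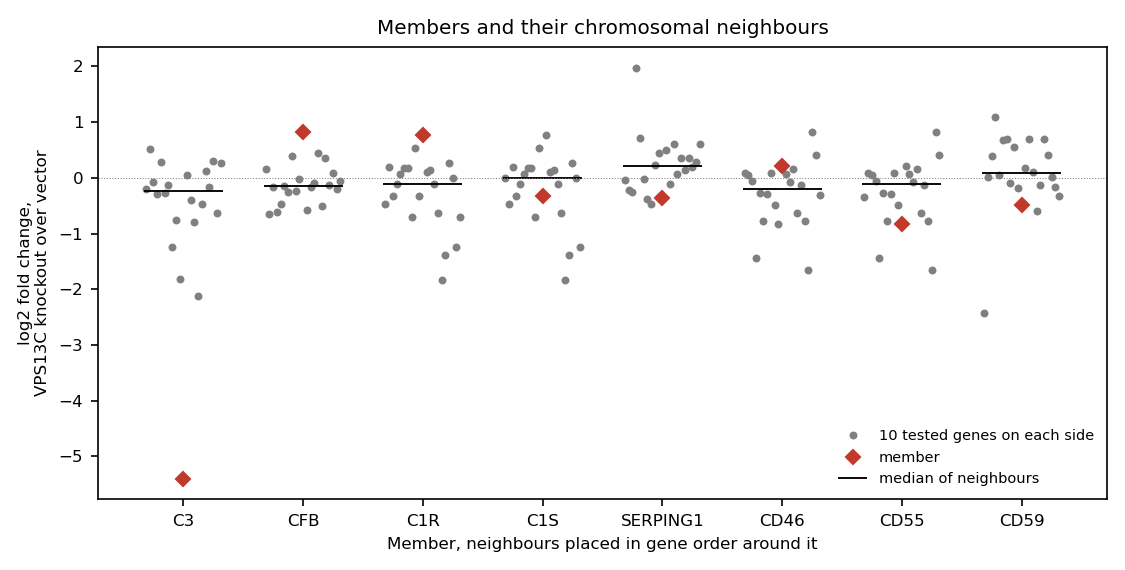
Log2 fold change of each member (diamond), of the 10 tested genes on each side of it in gene order (grey points) and the median of these neighbours (line). C3 at −5.40 lies below all 20 of its neighbours, whose median is −0.23.

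Promoter windows of 250 bases before a start site were in the RefSeq promoter table (GRCh38.p14) for 5 members, CFB, C1R, CD46, CD55 and CD59. CFB and the first C1R window are shown because these members were the higher ones in knockout cells, and capitals mark the motif matches.
CFB, chr6:31945845-31946094, plus strand: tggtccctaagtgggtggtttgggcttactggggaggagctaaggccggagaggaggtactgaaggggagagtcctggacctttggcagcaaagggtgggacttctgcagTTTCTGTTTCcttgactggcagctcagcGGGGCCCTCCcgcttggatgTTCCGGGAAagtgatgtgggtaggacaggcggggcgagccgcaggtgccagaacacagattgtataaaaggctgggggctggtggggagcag
C1R, chr12:7092446-7092695, minus strand: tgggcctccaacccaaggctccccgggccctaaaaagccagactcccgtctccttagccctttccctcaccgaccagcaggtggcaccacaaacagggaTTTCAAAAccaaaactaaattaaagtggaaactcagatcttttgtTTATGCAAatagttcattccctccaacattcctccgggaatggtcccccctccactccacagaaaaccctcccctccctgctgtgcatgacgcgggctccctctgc

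The windows were searched on both strands for C/EBP (TTNNGNAA), GAS (TTCNNNGAA), ISRE (GAAA, any 2 bases, GAAA) and AP-1 (TGANTCA) letters and for the NF-kB motif. These are bound by C/EBP factors, STAT dimers, interferon-regulated complexes, Fos and Jun dimers and NF-kB, in that order. The CFB window held an ISRE match 140 bases, an NF-kB match 112 bases and a GAS match 92 bases before the start, without overlap. The C1R window held 2 C/EBP matches, 151 and 106 bases before the start. Of 35116 windows of this length in the table, 3.02% held ISRE, 9.96% NF-kB, 6.57% GAS, 33.2% C/EBP and 6.57% AP-1 letters. A second C1R window held a C/EBP and a GAS match. All 4 windows of CD59, a member that was lower in knockout cells, held matches too, of GAS, C/EBP or AP-1 letters. The 2 CD59 windows with GAS letters overlap and share the same match. The CD46 and CD55 windows had none of these letters, which says nothing of other stretches. A match is a description and no binding was measured.

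Of 53 other complement genes listed, 44 were in the table, and 15 had enough counts to be tested. Of the 15, edgeR called 4 higher and 3 lower in knockout cells, 8 were not called, and the median log2 fold change was −0.24, beside 0.0041 over all tested genes. The background shares are 17.8% higher and 17.4% lower. CFD (factor D, the protease that cuts factor B) averaged 24.8 ± 6.99 CPM in knockout and 13.5 ± 1.66 CPM in vector cells, with a log2 fold change of 0.87 (SE 0.21) and an edgeR adjusted p of 0.0173. Without vector replicate 3 that adjusted p was 0.0584. CFI (factor I, which cuts C3b with CD46 as a cofactor) averaged 4.41 ± 0.390 CPM in knockout and 1.04 ± 0.278 CPM in vector cells (log2 fold change 1.95, SE 0.22, edgeR adjusted p = 0.00059).

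SUSD4, a membrane protein with sushi domains that restrains complement, had 18.4, 19.4 and 19.3 CPM in knockout and 4.54, 6.16 and 6.92 CPM in vector libraries (log2 fold change 1.68, SE 0.16, edgeR adjusted p = 0.000417). CSMD2, which carries the same kind of domains, averaged 11.7 ± 2.67 CPM in knockout and 3.72 ± 0.640 CPM in vector cells (log2 fold change 1.62, edgeR adjusted p = 0.00153). Its knockout libraries were all above its vector libraries, as were those of SUSD4, CFI and CFD.

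The 3 genes that fell are receptors. C5AR1, the receptor of the C5a fragment, averaged 2.75 ± 0.256 CPM in knockout and 6.26 ± 0.819 CPM in vector cells (log2 fold change −1.15, SE 0.17, edgeR adjusted p = 0.00176). ITGAX, a chain of complement receptor 4, averaged 1.16 ± 0.122 CPM in knockout and 2.09 ± 0.102 CPM in vector cells (log2 fold change −0.78, edgeR adjusted p = 0.0145). ITGAM, a chain of complement receptor 3 and also on the macrophage marker list, had summed counts of 6 in knockout and 42 in vector libraries (log2 fold change −1.94, SE 0.59, edgeR adjusted p = 0.013). ITGB2, the chain both receptors need, was too low to be tested, with 21 counts in knockout and 42 in vector libraries. The ITGAM call was lost without knockout replicate 3 (adjusted p = 0.0579), and the ITGAX call without that library (0.0605) or vector replicate 3 (0.0621).

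C2 and C5, which act just before and just after C3, were not called. C2, the classical partner of C4, had 3.39 ± 0.309 CPM in knockout and 4.04 ± 1.24 CPM in vector cells, and C5, the next component after C3, had 8.59 ± 1.63 CPM in knockout and 10.6 ± 1.20 CPM in vector cells. The regulator CLU (log2 fold change −0.26, SE 0.16) and properdin (CFP, 0.59, SE 0.28) were not called either, nor were C1RL, COLEC12 and C1QBP. C4A (uncertain, since it has a near-identical copy, C4B) and the C3a receptor C3AR1 were among 6 genes at 0 in every library, and the membrane attack genes C7, C8B, C8G and C9 had at most 11 counts in a group. Among 23 genes too low to test, named after their values were seen, CR1 (complement receptor 1) had 25 counts in knockout and 1 in vector libraries, and C4BPB (a chain of the C4b-binding protein) had 1 in knockout and 32 in vector libraries.

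**Figure D4:**
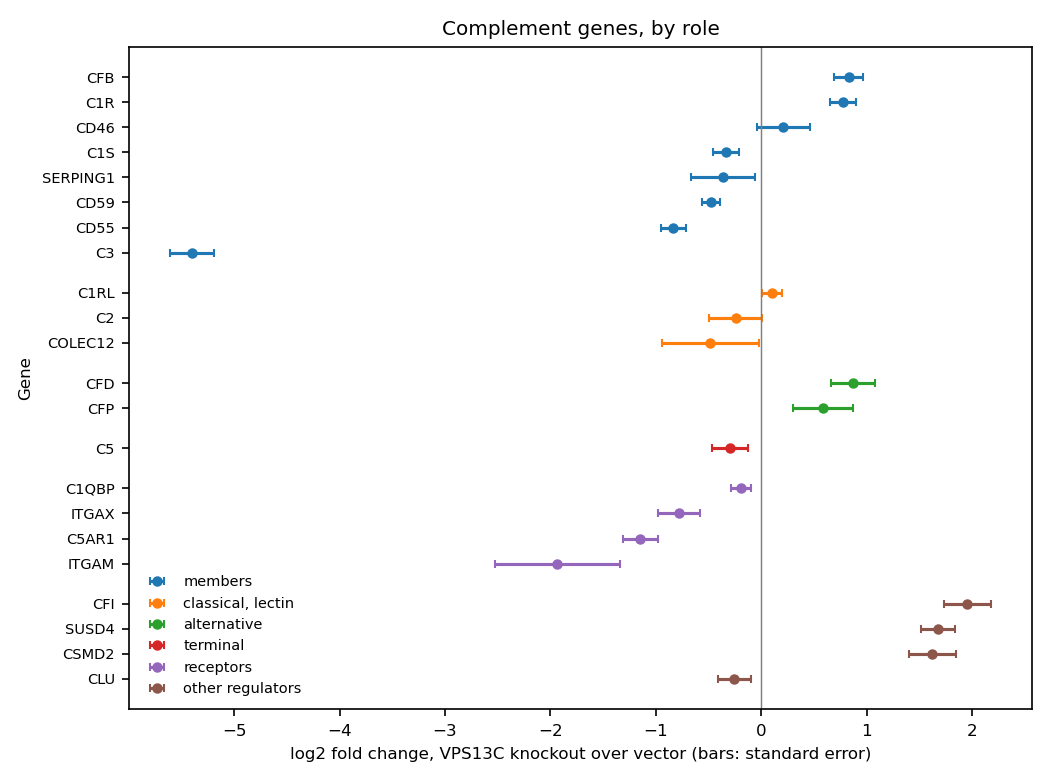
Log2 fold change of VPS13C knockout over vector with its standard error for the 8 members and for other complement genes tested, grouped by role. C3 stands apart at −5.40, and SUSD4, CSMD2 and CFI lie between 1.62 and 1.95.

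The 5 genes whose profiles were most like that of C3 were HSD17B2, KRTAP2-3, ZNF83, KRTAP3-1 and ROBO1, by the root mean square difference of centred log2 CPM over the 6 libraries. HSD17B2, an enzyme that oxidises oestradiol, was nearest at a difference of 0.143, with summed counts of 6 in knockout and 520 in vector libraries. The other differences were 0.457 (KRTAP2-3, a keratin-associated protein of hair), 0.531 (ZNF83, a zinc finger protein), 0.568 (KRTAP3-1, also of hair) and 0.585 (ROBO1, a receptor for SLIT guidance proteins). All of them were low in the 3 knockout libraries and high in the 3 vector libraries, which the choice fixes.

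The list of known inducers holds cytokines, receptors and transcription factors reported to act on complement genes in other cells, with some of their feedback inhibitors. Of 33 tested, edgeR called 4 higher and 11 lower in knockout cells, beside 17.8% and 17.4% of all genes, and the median log2 fold change was −0.21. IL1B, the interleukin-1β cytokine, averaged 7.16 ± 0.111 CPM in knockout and 35.5 ± 2.68 CPM in vector cells (log2 fold change −2.29, SE 0.11, edgeR adjusted p = 3.04e-05). LIF, of the interleukin-6 family, averaged 5.00 ± 0.925 CPM in knockout and 22.9 ± 1.67 CPM in vector cells (log2 fold change −2.17, edgeR adjusted p = 0.00013). SOCS3, a feedback inhibitor of JAK and STAT signalling, averaged 3.66 ± 0.157 CPM in knockout and 15.5 ± 2.23 CPM in vector cells (log2 fold change −2.04, edgeR adjusted p = 0.00012). IRF9, the DNA-binding part of the interferon-stimulated complex, rose, with 61.0 ± 3.65 CPM in knockout and 27.0 ± 0.959 CPM in vector cells (log2 fold change 1.17, edgeR adjusted p = 0.000216).

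Acute phase proteins, which the liver and inflamed epithelia release together with C3, numbered 21 in the list, and 6 had enough counts. Of these, edgeR called 2 higher and 3 lower, beside 17.8% and 17.4% of all genes, with a median log2 fold change of −1.47. SAA1 (serum amyloid A) averaged 4.63 ± 1.67 CPM in knockout and 66.3 ± 16.6 CPM in vector cells (log2 fold change −3.81, SE 0.30, edgeR adjusted p = 0.000181). SAA2 is nearly identical in sequence to SAA1, so reads may be divided wrongly between them, and it had summed counts of 18 in knockout and 231 in vector libraries (edgeR adjusted p = 0.00029). LCN2 (lipocalin 2, which withholds iron from bacteria) averaged 158 ± 38.1 CPM in knockout and 1417 ± 350 CPM in vector cells (log2 fold change −3.17, edgeR adjusted p = 0.00021). SERPINA1 (α1-antitrypsin) rose, with 9.14 ± 2.20 CPM in knockout and 3.61 ± 0.802 CPM in vector cells (log2 fold change 1.31, edgeR adjusted p = 0.00542).

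C3 belongs to a family of thioester proteins, in which an internal bond lets many members, though not all, attach to targets. Of 4 relatives tested, edgeR called 2 higher and 0 lower, beside 17.8% and 17.4% of all genes. A2ML1, a protease trap of the epidermis, averaged 45.6 ± 8.02 CPM in knockout and 9.59 ± 2.65 CPM in vector cells (log2 fold change 2.23, edgeR adjusted p = 0.000454). CPAMD8 averaged 2.61 ± 0.695 CPM in knockout and 0.527 ± 0.198 CPM in vector cells (log2 fold change 2.07, edgeR adjusted p = 0.0025). CD109 (−0.56, SE 0.24) and C5 were not called.

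Proteases reported to cleave C3 or C5 outside the cascade were called higher by edgeR in 5 of 7 tested and lower in 1, beside 17.8% and 17.4% of all genes, with a median log2 fold change of 0.54. ST14 (matriptase) averaged 280 ± 15.5 CPM in knockout and 164 ± 12.7 CPM in vector cells (log2 fold change 0.77, edgeR adjusted p = 0.00123). CTSL (cathepsin L, reported to cut C3 inside T cells) averaged 111 ± 4.14 CPM in knockout and 76.0 ± 1.39 CPM in vector cells (log2 fold change 0.54, edgeR adjusted p = 0.00297). FURIN, which processes many precursor proteins, had a log2 fold change of 0.43 (edgeR adjusted p = 0.0128) and KLK14 one of 1.05 (edgeR adjusted p = 0.0224), and each lost its call in some settings. The list had 3 calls without knockout replicate 3 and 3 without vector replicate 3.

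C1 inhibitor also restrains the contact and kinin system, of which 7 genes were tested and edgeR called 2 lower, beside 17.4% of all genes. PLAT (tissue plasminogen activator) averaged 5.15 ± 0.998 CPM in knockout and 21.2 ± 0.206 CPM in vector cells (log2 fold change −2.02, SE 0.16, edgeR adjusted p = 0.000163). The list had 1 call without knockout replicate 3 and 1 without vector replicate 3. The bradykinin receptors BDKRB1 (−0.51, SE 0.17) and BDKRB2 (−0.24, SE 0.09) were not called.

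CD55 and CD59 need a GPI anchor, and 31 genes of its synthesis and remodelling were tested. Of these edgeR called 2 higher and 3 lower, beside 35.1% of all genes in either direction, 26 were not called, and the median log2 fold change was −0.06. The list had 9 calls with each library's length trend removed and 8 with DESeq2. PIGO, which adds phosphoethanolamine to the anchor, averaged 48.3 ± 3.49 CPM in knockout and 30.3 ± 0.825 CPM in vector cells (log2 fold change 0.67, edgeR adjusted p = 0.00241). MPPE1, which trims the anchor, had a log2 fold change of 0.57 (edgeR adjusted p = 0.00882), PIGX, which helps to add the first mannose, one of −0.51 (edgeR adjusted p = 0.00896), and DPM1, of the enzyme that makes the mannose donor, one of −0.48 (edgeR adjusted p = 0.0104). The DPM1 call was lost with the length trend removed (adjusted p = 0.101).

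**Figure D5:**
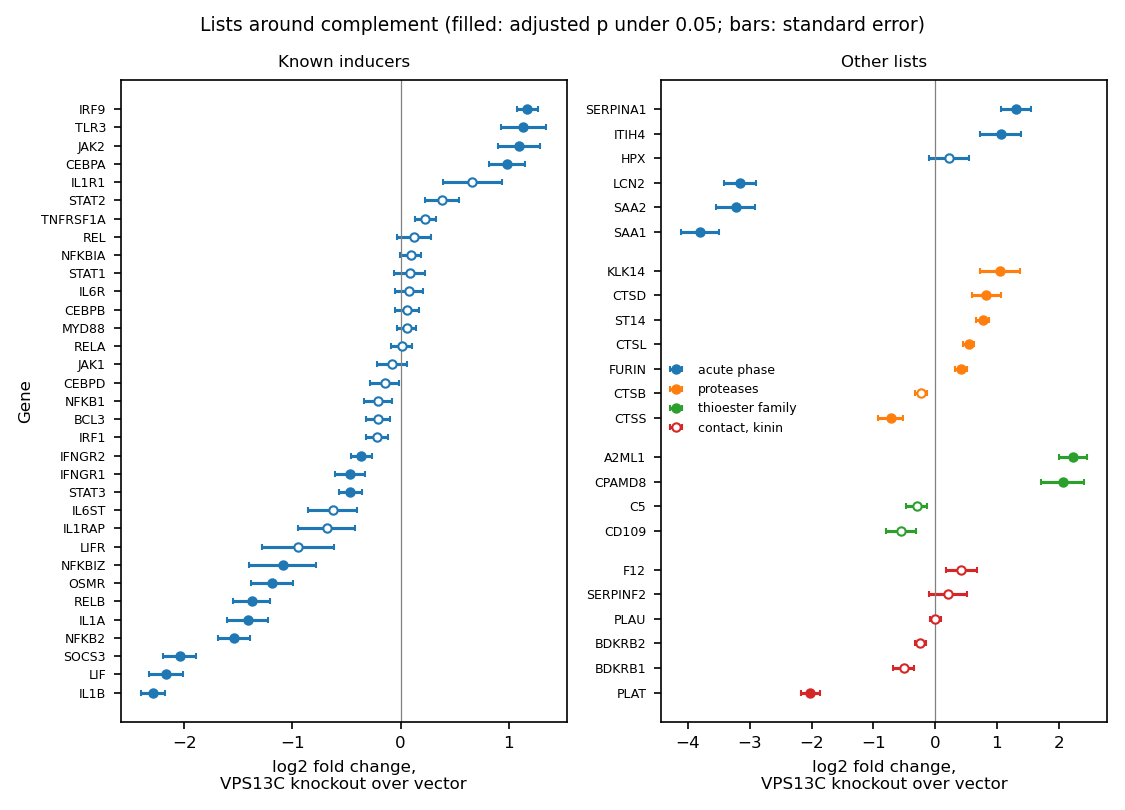
Log2 fold change of VPS13C knockout over vector with its standard error for genes of 5 lists around complement, filled where the edgeR adjusted p was under 0.05. IL1B, LIF and SOCS3 lie between −2.29 and −2.04, and SAA1, SAA2 and LCN2 between −3.81 and −3.17.

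All 8 squamous and epithelial markers of the list were expressed well enough to be tested, with a summed 16875 to 21109 CPM in knockout and 11827 to 15587 CPM in vector libraries, mostly KRT5. In that list edgeR called KRT14 (log2 fold change 1.34) and KRT5 (0.88) higher and KRT18 (−1.56), EPCAM (−0.72) and KRT8 (−0.55) lower. Complement genes are also made by macrophages, fibroblasts, liver and endothelium. Of 8 macrophage and leukocyte markers 4 were tested, and their list summed to 43.2 to 47.2 CPM in knockout and 74.5 to 89.2 CPM in vector libraries, nearly all from CD68. Of the others, PTPRC (0 counts in knockout, 1 in vector libraries), CD163 (0 and 4) and CD14 (10 and 8) were near 0. MRC1 had 2 counts in knockout and 0 in vector libraries. CSF1R (40 and 81) and LYZ (41 and 41) were tested and not called, and ITGAM (6 and 42) was called lower. Fibroblast markers summed to 47.7 to 50.5 CPM in knockout and 37.3 to 44.3 CPM in vector libraries, mostly COL1A1, with LUM at 2 counts in knockout and 0 in vector libraries. DCN, another fibroblast marker, averaged 3.78 ± 0.395 CPM in knockout and 0.188 ± 0.00779 CPM in vector cells. The hepatocyte list summed to 102 to 162 CPM in knockout and 94.9 to 145 CPM in vector libraries, mostly TF, while ALB had 2 counts in knockout and 4 in vector libraries and TTR had 0 in both. The endothelial list summed to 22.0 to 25.1 CPM in knockout and 8.57 to 8.97 CPM in vector libraries, mostly VWF, with PECAM1 at 0 counts in knockout and 3 in vector libraries. CDH5 of the same list went the other way, with 0.152 ± 0.136 CPM in knockout and 2.27 ± 0.285 CPM in vector cells (log2 fold change −3.07, edgeR adjusted p = 0.00139). The part of the markers whose levels moved between the groups, among them CD68, DCN, VWF, CDH5 and the keratins, in the differences of the complement genes was not tested.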

How the data were processed

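Gene and transcript tables were used as deposited. Per the labels' protocols, single-end reads of 50 bases were made with DNBSEQ. Per the submitters' processing notes the build was hg38. Which aligner, counter, annotation and strand setting they used is not given in the sources used here. Whether reads from a gene and an antisense partner were kept apart is therefore not known. The deposited expected count (estimated reads, with fractions) was rounded for tests. TPM deposited by the authors gave levels between genes, and FPKM deposited by the authors gave an alternative and gene lengths. A normalized signal column and group means by the authors were not used. Per-sample columns that could not be mapped numbered 0.

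Genes passing filterByExpr (minimum count 10) were tested with edgeR 4.0.16 in R 4.3.3 (TMM, robust quasi-likelihood F-test, Benjamini-Hochberg adjusted p under 0.05 over all genes). Log2 fold changes used a prior count of 2, and SE is the unshrunk change divided by the root of F. Intervals of counts cover counting error only. Exon models came from GENCODE release 29, and 18191 genes were found in a RefSeq table by Entrez identifier.

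The members, lists and tests were chosen with earlier results of these data known. Named genes were the members, all called genes of the other complement lists (at most 12), up to 4 called genes with the smallest p of each further list, VPS13C, GSTP1 and the 5 genes most like C3. Genes given as not called, too low, neighbouring or as cell markers are outside this rule, and were picked with their values in view. Replicate numbers were not used to pair libraries. Alternatives were other scaling, DESeq2 1.42.0, limma 3.58.1 on log2(FPKM + 1), other filters, a block, removal of each library's length trend, neighbour windows and leaving out each library. A prior count of 0.125 was added after seeing the data. Figures were drawn with matplotlib 3.10.9. Values of some tested list genes are not reported here, though the counts of calls include them.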

Additional observations from a re-analysis of the deposited data

How the results depend on the processing

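The log2 fold changes of all 8 members kept their direction in every alternative run that fitted them. C1S and SERPING1 did not pass the filter of 10 CPM in 3 libraries. C3 was −2.44 and CFB 0.64 with limma on log2(FPKM + 1), a scale that understates changes of low genes. Leaving out each library in turn gave −5.60 to −5.19 for C3, 0.06 to 0.51 for CD46 and −0.75 to −0.18 for SERPING1. Calls over all genes ran from 3026 to 5043 in these fits, those of the other complement genes from 5 to 10, of the contact and kinin list from 1 to 2 and of the proteases from 3 to 5. Transcripts were described if they held at least 5% of their gene in the mean of either group. With all libraries, those whose shares did not overlap were the 2 of CD59, whose shares nearly mirror each other. When 1 library was left out they numbered 2 to 5. Groups with fewer libraries overlap less easily, and the share over all transcripts is not given here, so nothing is read from these counts. Same-numbered libraries correlated at 0.65, 0.68 and −0.22 in their deviations from the group means, so the numbers were not taken to pair libraries. Between unlike numbers the correlations ran from −0.75 to 0.42. The slope of log2 CPM per doubling of gene length was 0.13 in knockout and 0.12 in vector replicate 1. Replicate 2 had −0.12 in both groups, and replicate 3 had 0.05 in knockout and −0.06 in vector. With the replicate block 7939 genes were called (4049 higher, 3890 lower), among them 11 other complement genes, 23 inducers, 4 thioester, 18 GPI anchor and 5 contact and kinin genes. A filter of 10 CPM in 3 libraries tested fewer genes and left calls for 2 other complement, 2 acute phase, 1 thioester and 1 contact gene. With the length trend removed, calls were 9 for the GPI anchor list and 4 for the contact list, and with DESeq2 they were 8 and 4, and the cause was not tested. The median log2 fold change of neighbours was −0.62 (5 genes to each side) and −0.040 (20) for C3, −0.0050 and −0.023 for C1R, 0.12 (5) for C1S and 0.15 (5) for SERPING1. Each of the other values was a named gene or a transcript share in 1 alternative, and 584 were rated the same. In 16 a named gene lost its call, and in 9 one gained a call. DPM1 lost its call with the length trend removed (edgeR adjusted p = 0.101). The gains were VPS13C, which passed the threshold in 7 of 15 alternatives, and GSTP1, which passed it in 2 of 15. Around CD59 the neighbour median, 0.08 with 10 genes to each side, was −0.05 with 20. When 1 library was left out, the difference in transcript share (knockout minus vector, percentage points) ran from −15.0 to 27.0 for C1S NM_201442.4, from −1.36 to 27.2 for C1S NM_001734.5 and from −1.40 to 7.03 for CD46 NM_153826.4. Depth limits C3 in knockout cells, with at most 9 counts a library, and SERPING1 and ITGAM.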
